A study of Mus musculus with 23 samples.

Results

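The genes described here encode core enzymes of peroxisomal beta-oxidation: the acyl-CoA oxidases Acox2 and Acox3, the bifunctional enzymes Ehhadh and Hsd17b4, the thiolases Acaa1a, Acaa1b and Scp2, and the auxiliary enzymes Amacr and Decr2. They were taken by symbol, as the 9 rows of the count tables that carry these names, out of 24062 genes. All 9 were among the 14196 genes with enough reads to be tested. Their reads were counted in liver polyA RNA of 23 mice of mixed B6/129 background, 1 library per mouse, in 4 groups that cross the Ehhadh genotype with a treatment. There were 7 wild-type (WT) mice given saline (29 to 45 weeks old), 5 Ehhadh knockout (KO) mice given saline (31 to 44 weeks), 6 WT mice given L-AC (28 to 44 weeks) and 5 KO mice given L-AC (28 to 38 weeks). L-AC appears in the labels only as this abbreviation. L-aminocarnitine is known as an inhibitor of carnitine palmitoyltransferase 2, through which long-chain acyl groups enter mitochondrial oxidation. The labels do not say which stretch of Ehhadh the knockout allele lacks, and they give neither the dose nor the sex of the mice. The design asks how the livers respond to L-AC, and whether the response differs without Ehhadh.

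Peroxisomal beta-oxidation shortens very long-chain, dicarboxylic and branched-chain fatty acids, and in liver it also trims the side chain of the bile acid precursors. An acyl-CoA oxidase makes the first double bond, a bifunctional enzyme hydrates it and oxidises the product, and a thiolase releases the shortened chain. Ehhadh and Acaa1a or Acaa1b are textbook enzymes of the straight-chain branch and textbook targets of the nuclear receptor PPAR alpha. Hsd17b4, Scp2 and Amacr are known for branched-chain and bile acid substrates, and Acox2 for bile acid intermediates.

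Each library held 24521896 to 48095959 counted reads, of which the 9 genes took 0.881% to 1.33% in the WT mice and 0.767% to 1.07% in the KO mice on saline. With L-AC their share was 2.58% to 3.17% in WT mice and 1.57% to 1.96% in KO mice. The library with the fewest reads of a member had 505, for Acox3. The first principal component of the libraries, with 55.18% of the variance, placed saline between -50.76 and -28.09 and L-AC between 26.4 and 68.54. WT saline replicate 1 stood apart on the third component, at 42.67. It was also the saline library nearest to L-AC on the first, at -28.09, and the highest saline library on the second, at 28.83. WT saline replicate 7 and KO saline replicate 3 were the highest of their groups in Ehhadh, Acaa1a and Acaa1b, and values without them are given beside the results they bear on.

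The upstream sequences of the 3 genes with the largest response to L-AC are shown. These 3 genes rose in both genotypes, by different amounts. They are the 250 bases before the transcription start in RefSeq, build GRCm38.p6, written 5′ to 3′ along the gene, and each start falls on the end of the gene model in the count tables. Capitals mark CCAAT, the box bound by the factor NF-Y, or its reverse complement ATTGG.
Ehhadh, chr16:21787835-21788084, minus strand: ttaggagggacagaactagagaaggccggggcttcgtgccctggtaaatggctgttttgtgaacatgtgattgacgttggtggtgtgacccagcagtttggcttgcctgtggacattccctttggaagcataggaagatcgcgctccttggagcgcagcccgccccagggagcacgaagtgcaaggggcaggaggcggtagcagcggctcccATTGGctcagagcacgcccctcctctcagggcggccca
Acaa1a, chr9:119341044-119341293, plus strand: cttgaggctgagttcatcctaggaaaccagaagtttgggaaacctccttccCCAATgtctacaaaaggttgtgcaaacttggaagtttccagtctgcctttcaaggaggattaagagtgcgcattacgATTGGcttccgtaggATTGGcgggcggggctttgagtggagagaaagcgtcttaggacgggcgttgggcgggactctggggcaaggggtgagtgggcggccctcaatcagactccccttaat
Acaa1b, chr9:119157094-119157343, minus strand: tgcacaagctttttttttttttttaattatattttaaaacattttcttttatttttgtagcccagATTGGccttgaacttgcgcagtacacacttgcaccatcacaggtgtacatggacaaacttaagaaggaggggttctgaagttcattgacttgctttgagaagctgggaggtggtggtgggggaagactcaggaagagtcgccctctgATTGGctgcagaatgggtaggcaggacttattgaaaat
Ehhadh and Acaa1b carried ATTGG at the same place, 38 to 34 bases before the start, and Acaa1b had another at 185 to 181. Acaa1a had CCAAT at 199 to 195 and ATTGG at 122 to 118 and at 107 to 103. The Ehhadh window was 60.4% G or C with 12 CG pairs, that of Acaa1a 53.6% with 10, and that of Acaa1b 41.6% with 2. Aligned with each other, the windows of the sister genes Acaa1a and Acaa1b were identical at 148 of 288 positions (51.4%). RefSeq windows were at hand for 7 of the 9 genes, 8 windows in all because Acox2 has a second start. CCAAT on either strand was found in 4 of these 8 and in 33.8% of all 32851 windows of this length. The Acox2 window that held it had it at 36 to 32 bases before the start. TATAA on either strand was found in the Acaa1b window alone of the 8, and in 22.8% of all windows. The direct repeat AGGTCANAGGTCA, the consensus form of a PPAR alpha site, was searched on both strands with up to 2 mismatches. It was in 0 of the 8 windows, where the nearest match had 3 mismatches, and in 3.24% of all windows. These matches describe letters in short windows and say nothing of which factor binds there.

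**Figure D1:**
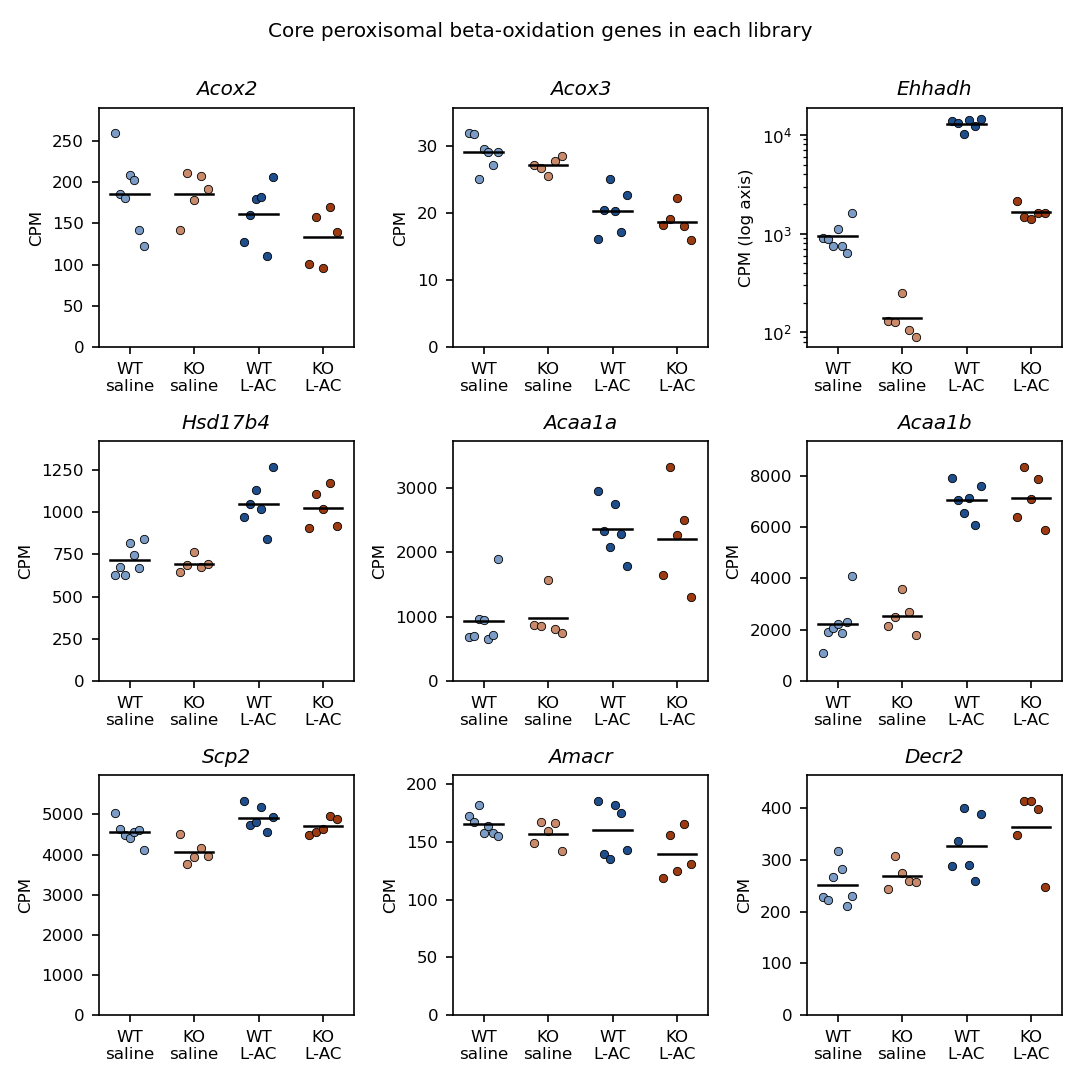
Level of each gene in each of the 23 libraries, in CPM, the counts scaled to a common library size, with 1 point per mouse and a bar at the group mean. The axis of Ehhadh is logarithmic and the others start at 0. Ehhadh and Acaa1b are higher in every L-AC library than in any saline library of the same genotype, while Amacr stays between 118.8 and 185.7 CPM in all 4 groups.

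With L-AC the straight-chain genes Ehhadh, Acaa1a and Acaa1b rose most, Hsd17b4 and Decr2 rose less, and Acox3 fell, in WT and in KO livers. Against saline in WT livers, edgeR's quasi-likelihood test called 6 of the 9 at an adjusted p under 0.05, 5 higher and 1 lower. Of all genes tested, 53.3% were called in this comparison, 26.6% higher and 26.7% lower. A call in itself was therefore common, and all called genes were split about evenly by direction. The median log2 fold change of the 9 was 0.38, against -0.01 for all genes. In KO livers 8 of the 9 were called, 6 higher and 2 lower, where 48.8% of all genes were called, 25.2% higher and 23.6% lower. Here the median of the 9 was 0.44, against -0.01 for all genes. Counting genes whose libraries did not overlap between L-AC and saline, there were 2 members in WT (24.1% of all genes) and 4 in KO (32.6%). In whole liver, fewer cells of a type and less RNA per cell cannot be told apart.

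**Figure D2:**
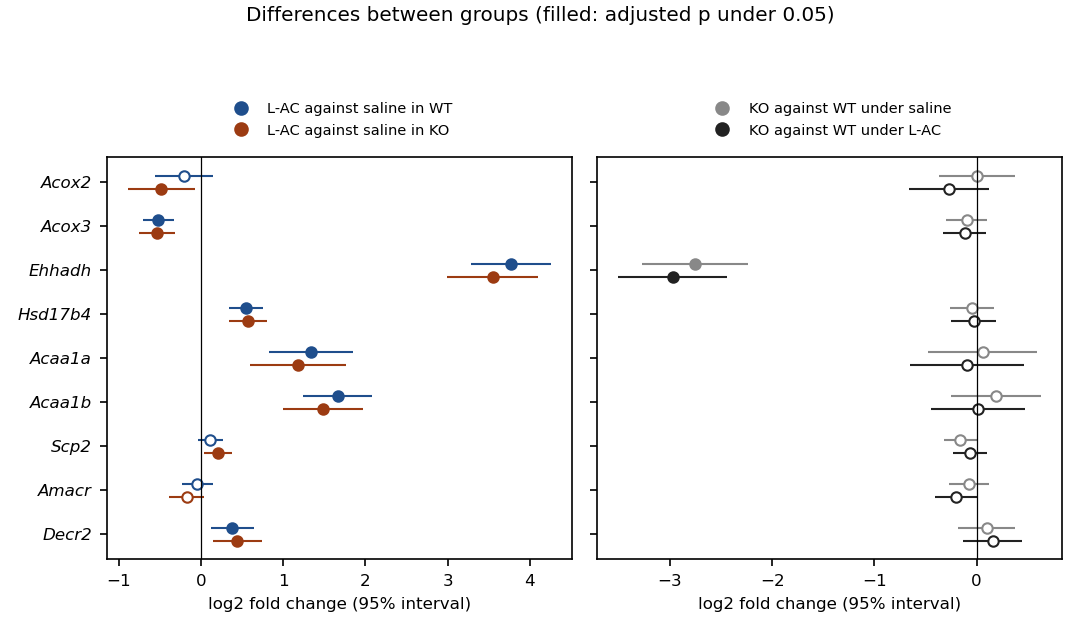
Fitted log2 fold changes of the 9 genes with 95% intervals, filled where the adjusted p is under 0.05, for L-AC against saline (left) and KO against WT (right). On the left Ehhadh, Acaa1b and Acaa1a lie farthest to the right, and Acox3 lies at -0.52 and -0.54. On the right only Ehhadh is filled.

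Of the acyl-CoA oxidases, Acox3 fell with L-AC in both genotypes, and Acox2 passed the test as lower in KO livers. Acox3, known as an oxidase of pristanoyl-CoA, lies on chromosome 5 from 35583060 to 35613801 of mm10 (plus strand) and was the scarcest of the 9. In WT saline its lowest, median and highest libraries had 25.05, 29.15 and 31.91 CPM, and in WT L-AC 16.16, 20.42 and 25.13 CPM. The 2 ranges met only at their edge, where the highest L-AC library, replicate 3, passed the lowest saline library, also replicate 3. The log2 difference was -0.52 (SE 0.092, adjusted p = 6.63e-05), 1.43-fold lower. In KO livers it had 27.24, 26.75, 25.52, 27.81 and 28.57 CPM with saline and 18.21, 19.12, 22.3, 18.05 and 15.96 CPM with L-AC, and the groups did not overlap. The difference there was -0.54 (SE 0.105, adjusted p = 0.000208). Acox3 shares exon bases with the gene model 4931431C16Rik, and a read in the shared bases counts for both. That neighbour had 19 to 153 reads per library, against 505 to 1396 for Acox3.

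Acox2, the oxidase of bile acid intermediates, lies on chromosome 14 from 8225511 to 8259019 (minus strand). It did not pass the test in WT livers, at -0.21 (SE 0.173, 95% interval -0.56 to 0.15, adjusted p = 0.323). The lowest, median and highest WT libraries had 122.1, 185 and 258.9 CPM with saline and 110.7, 169.4 and 205.5 CPM with L-AC, so all but the lowest L-AC library lay within the saline range. Without WT saline replicate 1, which held the highest value, the difference was -0.11. Without WT saline replicate 7, which held the lowest saline value, it was -0.29. KO livers had 142.2, 210.3, 178.2, 207.1 and 192 CPM with saline and 100.8, 158, 96.53, 170.2 and 139.9 CPM with L-AC. The 2 KO groups overlapped, and Acox2 passed narrowly as lower with L-AC, at -0.48 (SE 0.196, adjusted p = 0.0458). That call was lost with no filter on low counts (-0.49, adjusted p = 0.0548), and it ended when any 1 of 11 libraries was left out, with values of -0.50 to -0.39 and adjusted p of 0.05 to 0.125. These libraries were replicates 2, 3 and 5 of WT saline, 2 to 5 of KO saline, 2 of WT L-AC, and 1, 3 and 5 of KO L-AC.

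The bifunctional enzymes rose, Ehhadh by far the most. Ehhadh, the L-bifunctional enzyme, lies on chromosome 16 from 21761285 to 21787834 (minus strand). As the targeted gene it checks the labels, and it was lower in every KO library than in every WT library of the same treatment. The WT saline libraries ranged from 634.8 to 1635 CPM with a median of 884.1. WT L-AC libraries ranged from 10260 to 14650 CPM with a median of 13470. The lowest L-AC library was thus several times the highest saline library, and the fitted log2 change was 3.77 (SE 0.233, adjusted p = 3.53e-11), or 13.7-fold. The reads still counted for Ehhadh in KO livers rose as well. KO saline libraries had 131.6, 127.1, 252.9, 105.5 and 90.92 CPM, and KO L-AC libraries had 2144, 1476, 1421, 1631 and 1617 CPM. The change in KO was 3.55 (SE 0.269, adjusted p = 1.15e-09), or 11.7-fold, and it differed from that in WT by -0.22 (95% interval -0.89 to 0.45, adjusted p = 1.0 for the interaction). Of the 5 KO L-AC libraries, 4 lay within the WT saline range and 1 above it.

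Hsd17b4, the D-bifunctional enzyme, serves the same step for branched chains and bile acid intermediates and lies on chromosome 18 from 50128201 to 50196270 (plus strand). Its lowest, median and highest WT libraries had 625.2, 675.5 and 843.8 CPM with saline and 842.4, 1032 and 1266 CPM with L-AC. The WT ranges touched, since the lowest L-AC library fell just under the highest saline library. In KO livers the saline libraries had 644.8, 686.6, 761.3, 677.1 and 692.1 CPM, and the L-AC libraries 906.9, 1109, 1020, 1174 and 916.8 CPM, with no overlap. Hsd17b4 rose by 0.55 in WT (SE 0.098, adjusted p = 6.76e-05) and by 0.57 in KO (SE 0.112, adjusted p = 0.000237), 1.46- and 1.48-fold.

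Of the thiolases, the straight-chain sisters rose and Scp2 moved little. Acaa1b lies on chromosome 9 from 119148043 to 119157093 (minus strand) and Acaa1a on the same chromosome from 119341294 to 119350295 (plus strand), 184.2 kb apart. Acaa1b had 1084, 2088 and 4095 CPM in the lowest, median and highest WT saline libraries and 6083, 7080 and 7901 CPM in WT L-AC. Every L-AC library exceeded every saline library. KO saline libraries had 2134, 2497, 3572, 2691 and 1794 CPM, and KO L-AC libraries 6374, 8328, 7096, 7878 and 5899 CPM, again without overlap. The rise was 1.66 in WT (SE 0.205, adjusted p = 7.16e-07, 3.16-fold) and 1.49 in KO (SE 0.235, adjusted p = 2.04e-05, 2.8-fold). The lowest WT saline value belonged to replicate 1 and the highest to replicate 7; without replicate 1 the rise in WT was 1.54, and without replicate 7 it was 1.88.

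Acaa1a had 653.2, 720.3 and 1892 CPM in the lowest, median and highest WT saline libraries and 1787, 2304 and 2949 CPM in WT L-AC. WT saline replicate 7, at 1892 CPM, was the only saline library above any WT L-AC library. KO saline libraries had 881.2, 857.5, 1576, 812.7 and 755.1 CPM. With L-AC, the 5 KO libraries spread widely (1658, 3327, 2266, 2510 and 1306 CPM), and the lowest, replicate 5, lay under KO saline replicate 3. Acaa1a rose by 1.33 in WT (SE 0.247, adjusted p = 0.000107, 2.52-fold) and by 1.18 in KO (SE 0.284, adjusted p = 0.00155, 2.27-fold). With WT saline replicate 7 and KO saline replicate 3 left out together, the rises were 1.60 and 1.42 for Acaa1a, 1.88 and 1.64 for Acaa1b, and 3.95 and 3.86 for Ehhadh, in WT and KO. These libraries were picked after seeing the data because they were the highest saline libraries in the same genes. Larger rises without them therefore follow from the choice. The transcripts of Acaa1a and Acaa1b share 360 stretches of 100 bases, the read length, among 2286 and 1590 distinct stretches. Part of the reads of either could thus be counted on the other. With other genes included, 485 stretches of Acaa1a (21.2%) occur in Acaa1b or Myd88, and 485 of Acaa1b (30.5%) in Acaa1a or Dlec1.

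Scp2 encodes both a thiolase for branched chains and, from a shorter transcript, sterol carrier protein 2, and counts by gene do not separate them. It lies on chromosome 4 from 108043830 to 108118547 (minus strand), and 28.6% of its 100-base stretches also occur in the gene models Gm47162 and Scp2-ps2. WT saline libraries ranged from 4121 to 5028 CPM (median 4571) and WT L-AC libraries from 4555 to 5339 CPM (median 4864), largely overlapping. The difference of 0.11 did not pass (SE 0.074, 95% interval -0.04 to 0.27, adjusted p = 0.206). KO libraries had 4523, 3776, 3945, 4169 and 3967 CPM with saline and 4483, 4555, 4634, 4973 and 4886 CPM with L-AC, where only KO saline replicate 1 reached into the L-AC range. Scp2 passed narrowly as higher in KO, at 0.21 (SE 0.085, adjusted p = 0.0463, 1.15-fold). Leaving out any 1 of 16 libraries ended that call, with values of 0.18 to 0.22 and adjusted p of 0.0509 to 0.104. They were replicates 2 to 6 of WT saline, 2 to 5 of KO saline, 2, 3, 4 and 6 of WT L-AC, and 3 to 5 of KO L-AC. The call was also lost under the size factors of DESeq2 (adjusted p = 0.0501), with age as a covariate (0.0806), with no filter on low counts (0.108) and in a fit of the KO groups alone (0.146). Without WT saline replicate 7 and KO saline replicate 3 together it was lost as well, at 0.19 (adjusted p = 0.089).

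The auxiliary enzymes differed from each other. Decr2, the peroxisomal 2,4-dienoyl-CoA reductase used for unsaturated chains, lies on chromosome 17 from 26081211 to 26090164 (minus strand). Its lowest, median and highest WT libraries had 210.5, 229.4 and 316.6 CPM with saline and 258.8, 313.3 and 400.9 CPM with L-AC, and the ranges overlapped. KO libraries had 243, 306.9, 275.3, 259.9 and 257.1 CPM with saline and 348.4, 413.9, 414.3, 398.5 and 247.5 CPM with L-AC, where L-AC replicate 5 alone was as low as saline. Decr2 rose by 0.38 in WT (SE 0.127, adjusted p = 0.0144, 1.3-fold) and by 0.44 in KO (SE 0.144, adjusted p = 0.0147, 1.36-fold). Amacr, the racemase that makes 2-methyl-branched acyl-CoA fit for the oxidase, lies on chromosome 15 from 10981756 to 10996624 (plus strand). Its libraries ranged from 155 to 182.1 CPM with saline and 135.1 to 185.7 CPM with L-AC in WT, and from 142.1 to 167.6 and 118.8 to 165.7 CPM in KO, overlapping throughout. Neither difference passed, at -0.05 in WT (95% interval -0.23 to 0.14, adjusted p = 0.692) and -0.17 in KO (95% interval -0.39 to 0.04, adjusted p = 0.173).

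**Figure D3:**
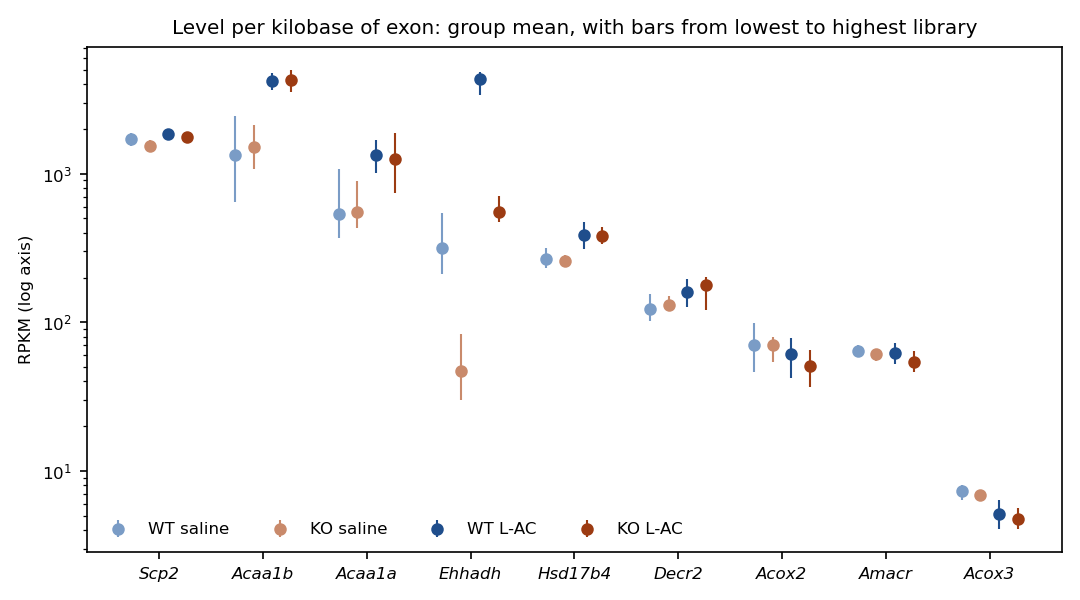
Level per kilobase of exon (RPKM, log axis) of the 9 genes, ordered by WT saline, with points at group means and bars from the lowest to the highest library. The mean of Ehhadh is lowest in KO saline (47.05 RPKM) and highest in WT L-AC (4331 RPKM), while Scp2 stays between 1530 and 1848 RPKM in the group means.

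To compare levels between genes, CPM were divided by exonic length (RPKM, the CPM per kilobase). For Ehhadh in KO livers the full exonic length was used, although the labels do not say what the allele lacks. In WT saline the order of the group means was Scp2 at 1709 ± 102.2 RPKM (SD, n = 7), Acaa1b at 1334 ± 549, Acaa1a at 533.8 ± 249.4, Ehhadh at 317 ± 111.3 and Hsd17b4 at 266.3 ± 33. Each of these neighbours overlapped in its libraries. Decr2 followed at 122.4 ± 18.76, then Acox2 at 70.63 ± 17.1 and Amacr at 64.17 ± 3.763, which overlapped each other, and Acox3 at 7.357 ± 0.6154, apart from the rest. KO saline kept this order but for Ehhadh, which at 47.05 ± 21.38 RPKM (SD, n = 5) came after Amacr, which it overlapped. In WT L-AC, Ehhadh at 4331 ± 532.2 RPKM (SD, n = 6) and Acaa1b at 4221 ± 401.2 led and overlapped. Scp2 at 1848 ± 109.3 and Acaa1a at 1345 ± 243.3 came next, without overlap, and Hsd17b4 at 389.5 ± 53.75 RPKM was far below Ehhadh. In KO L-AC, Acaa1b at 4263 ± 605.3 RPKM (SD, n = 5) was alone at the top, and Ehhadh at 550.8 ± 95.11 followed Acaa1a, still above Hsd17b4 at 381.9 ± 43.66 with no overlap. The summed level of the 8 genes other than Ehhadh was 4108 ± 700.7 RPKM (WT) and 4133 ± 576.9 (KO) with saline, and 8091 ± 637.6 (WT) and 7958 ± 1122 (KO) with L-AC. The summed levels of the genotypes thus differed by less than their SD under either treatment.

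Enzymes that serve the same step were compared as ratios within a library, which need no scaling by library size. Hsd17b4 and Ehhadh were about level in WT saline, where the ratio per length of Hsd17b4 to Ehhadh was 0.894 ± 0.204 (SD, n = 7). In WT L-AC it was 0.0911 ± 0.0176 (n = 6), so that Ehhadh was the far more abundant transcript. KO saline stood at 6.13 ± 1.93 (n = 5). KO L-AC stood at 0.713 ± 0.156 (n = 5), within the range of WT saline (0.579 to 1.18) for 4 of its 5 libraries. The KO ratios divide the reads still counted for the targeted gene by its full exonic length. Since the labels do not say what the allele lacks, these ratios are not a balance of intact transcripts comparable with WT. With L-AC the log2 ratio changed by -3.28 in WT (SE 0.1671) and -3.07 in KO (SE 0.2751), with adjusted p = 0.005828 and 0.01984 by an exact permutation test, two-sided, over 10 ratio comparisons. These rest on raw p of 0.001166 and 0.007937, the smallest that the groups allow.

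Scp2 to the sum of Acaa1a and Acaa1b was 1.04 ± 0.41 per length in WT saline (n = 7), 0.78 ± 0.203 in KO saline (n = 5), and with L-AC 0.333 ± 0.0154 in WT (n = 6) and 0.33 ± 0.0669 in KO (n = 5). WT L-AC libraries ran from 0.313 to 0.354 and KO L-AC libraries from 0.248 to 0.429. WT saline ran from 0.438, in replicate 7, to 1.81, in replicate 1, and KO saline from 0.488 to 0.99. With L-AC the log2 ratio changed by -1.55 in WT (SE 0.2328) and -1.22 in KO (SE 0.2244), with adjusted p = 0.005828 and 0.01984 by the exact permutation test. The WT change was -1.74 without WT saline replicate 7 and -1.40 without WT saline replicate 1. Acaa1b to Acaa1a was 2.57 ± 0.571, 2.8 ± 0.465, 3.22 ± 0.659 and 3.61 ± 0.814 in WT saline, KO saline, WT L-AC and KO L-AC. Its log2 differences with L-AC, 0.34 in WT (SE 0.1689) and 0.35 in KO (SE 0.1781), did not pass the exact permutation test (adjusted p = 0.1375 and 0.1587). Leaving out WT saline replicate 6 moved the WT difference to 0.41 and past the threshold (adjusted p = 0.0476 by exact permutation). Between genotypes, the differences in this ratio were 0.14 with saline and 0.16 with L-AC, and those of Scp2 to both sisters -0.36 and -0.04, none of which passed by exact permutation (adjusted p = 0.5022, 0.4816, 0.3716 and 0.7489).

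**Figure D4:**
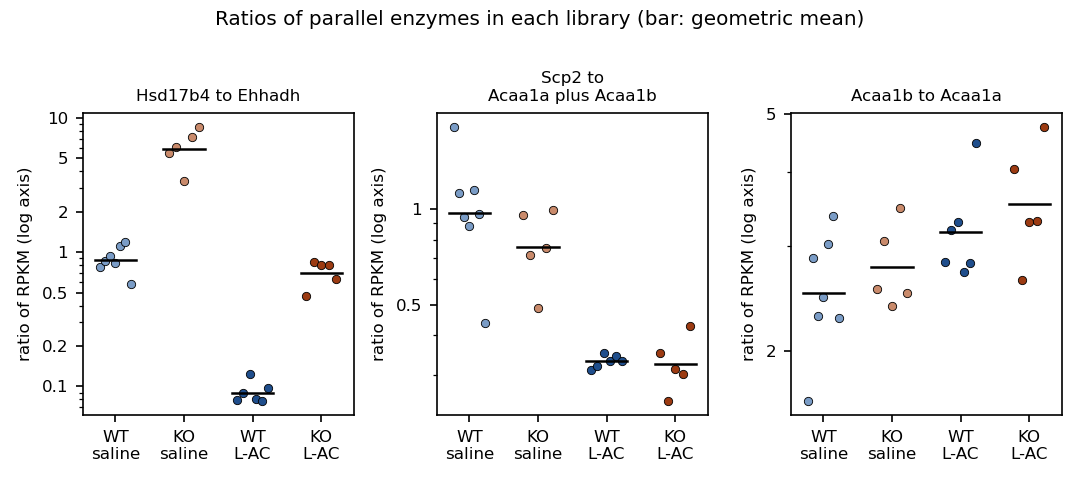
Ratios of RPKM between enzymes of the same step in each library, on log axes, with bars at the geometric mean of each group. The ratio of Hsd17b4 to Ehhadh separates all 4 groups except that KO L-AC reaches into WT saline, and the ratio of Scp2 to Acaa1a plus Acaa1b is lower in L-AC than in saline for every library of a genotype.

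Loss of Ehhadh was accompanied by no called change in the other 8 genes. KO against WT, Ehhadh was at -2.75 on the log2 scale with saline (SE 0.251, adjusted p = 1.94e-06, 6.74-fold lower) and at -2.98 with L-AC (SE 0.257, adjusted p = 6.87e-07, 7.86-fold lower). It was 1 of 9 members called in each comparison, in which 0.0141% of all genes were called. Averaged over treatments it was again the only member called, where 0.0282% of all genes were. The other 8 lay between -0.16 and 0.19 with saline, and their 95% intervals reached from -0.48 to 0.63. With L-AC they lay between -0.27 and 0.16, with intervals from -0.66 to 0.47, so that changes of less than these sizes are not excluded. Hsd17b4, the other bifunctional enzyme, differed by -0.05 with saline (95% interval -0.26 to 0.17) and -0.03 with L-AC (-0.25 to 0.19). Scp2 came nearest to the threshold with saline, at -0.16 (unadjusted p = 0.0537), and Amacr with L-AC, at -0.20 (unadjusted p = 0.0544). Neither was below an unadjusted p of 0.05.

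The response to L-AC was not shown to depend on the genotype for any of the 9. The interaction in edgeR called 0 of them and 0% of all genes. At an unadjusted p under 0.05 it held 0 of the 9 and 320 of 14196 genes. The limma-voom and DESeq2 fits called 0 of the 9 as well. The members' interactions lay between -0.28, for Acox2, and 0.09, for Scp2, and the 95% intervals of the 8 genes other than Ehhadh reached from -0.92 to 0.62.

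**Figure D5:**
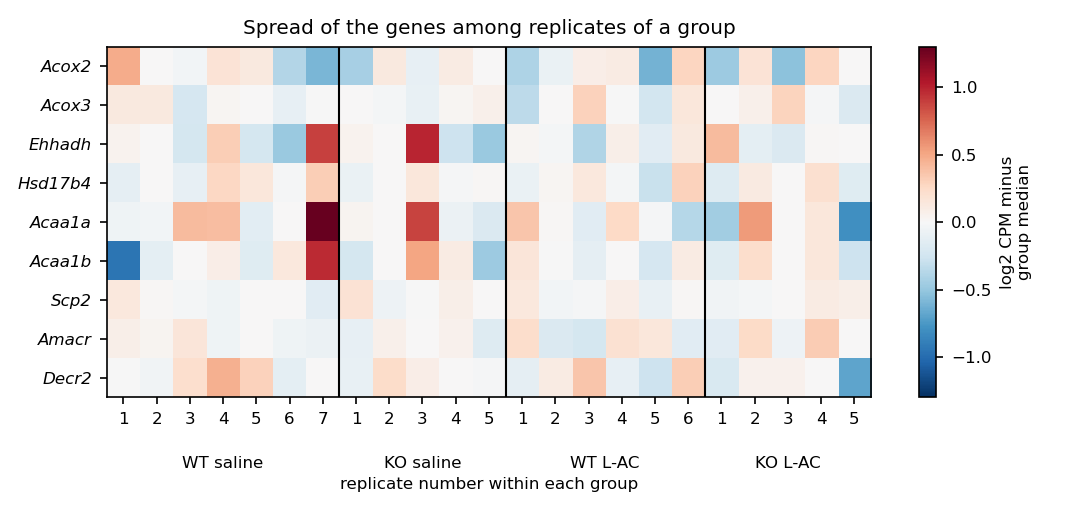
Deviation of each gene from the median of its group in each library, as log2 CPM. WT saline replicate 7 and KO saline replicate 3 stand out as high in Ehhadh, Acaa1a and Acaa1b, and WT saline replicate 1 as low in Acaa1b and high in Acox2.

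In WT saline the coefficient of variation among mice was 46.7% for Acaa1a, 41.1% for Acaa1b, 35.1% for Ehhadh and 24.2% for Acox2, against 5.98% for Scp2 and 5.86% for Amacr. Without WT saline replicate 7 it was 17.6% for Acaa1a, 23% for Acaa1b and 19.4% for Ehhadh, near the 19.6% of Acox2. In KO saline it was 34.7%, 26.5% and 45.4% for Acaa1a, Acaa1b and Ehhadh, and 6.71%, 17.4% and 16.7% without replicate 3. Both libraries were left out because they were highest in these genes, so lower spreads without them follow from the choice. With L-AC the same 3 genes had 18.1%, 9.51% and 12.3% in WT and 35.5%, 14.2% and 17.3% in KO. WT saline replicate 7 and KO saline replicate 3 were both from mice 41 weeks old, within saline ranges of 29 to 45 weeks (WT) and 31 to 44 weeks (KO). At 41 weeks there was also WT L-AC replicate 6, which had the highest Ehhadh of its group, 14650 CPM, and the lowest Acaa1a, 1787 CPM. Whether age has a part in these values was not tested.

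Other genes of the pathway were read from lists of named enzymes. Of 26 genes for peroxisomal lipid transport and accessory enzymes, 11 were higher and 8 lower with L-AC in WT and 11 and 6 in KO, with medians of 0.06 and 0.12. The 3 with the smallest p in WT all rose. Acot6, an acyl-CoA thioesterase, rose by 2.55 in WT (SE 0.207, adjusted p = 1.75e-09). Abcd3, a transporter of acyl-CoA into the peroxisome, rose by 1.19 (SE 0.104, adjusted p = 4.75e-09), and Crat, carnitine acetyltransferase, by 1.68 (SE 0.15, adjusted p = 6.54e-09). In KO these 3 rose by 2.55, 1.18 and 1.48. Of 16 peroxisome biogenesis genes, 9 were higher and 3 lower in WT and 9 and 2 in KO (medians 0.34 and 0.43). Pex19, a chaperone of peroxisomal membrane proteins, rose by 1.01 in WT and 1.03 in KO. Pex11a, a factor of peroxisome division, rose by 2.08 and 2.04.

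Mitochondrial beta-oxidation had 10 of 18 genes higher and 3 lower in either genotype, with medians of 0.43. Acadl, the long-chain acyl-CoA dehydrogenase, rose by 0.87 in WT and 0.88 in KO, Etfdh, which passes its electrons on, by 0.76 and 0.80, and Cpt2 by 0.75 and 0.88. Of 9 microsomal omega-hydroxylases, whose dicarboxylic products feed peroxisomal oxidation, 4 were higher and 3 lower in either genotype, with medians of -0.39 and -0.17. Cyp4a14 rose by 1.90 in WT and 1.62 in KO, while Cyp4f13 was at -0.39 and -0.49 and Cyp4f14 at -0.92 and -0.94, each called lower. Of 6 partners in bile acid synthesis, 1 was higher and 4 lower in WT and 0 and 5 in KO, with medians of -0.40 and -0.60. Cyp7a1, which sets the rate of the classical bile acid route, was at -5.11 in WT (SE 0.579, adjusted p = 2.24e-07) and -6.10 in KO (SE 0.687, adjusted p = 2.62e-07). Cyp7b1, of the alternative route, was at -1.75 and -1.19, and Baat, which conjugates bile acids, at -0.43 and -0.73, all called lower. None of the genes in these 5 lists was called between the genotypes with saline or with L-AC. These counts stand beside 26.6% higher and 26.7% lower among all genes in WT and 25.2% and 23.6% in KO.

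Likeness to a gene was measured as the root-mean-square difference in log2 CPM from the WT saline mean over all 23 libraries, among 14187 other genes. Nearest to Acaa1b were Crat, at 0.206, and Acot4, another acyl-CoA thioesterase, at 0.27. Crat had group means of 154.9, 164.7, 496.8 and 459 CPM, and Acot4 of 56.63, 61.47, 152.9 and 162 CPM, in WT saline, KO saline, WT L-AC and KO L-AC. ChkbCpt1b, a read-through gene model, was at 0.381 from Acaa1a. Ehhadh had no near neighbour by this measure, which spans the KO libraries, where Ehhadh itself is the targeted gene. Between the genotypes 0.0141% of all genes were called with saline or with L-AC. The part of the KO libraries in this lack of a near neighbour was not tested. The genes closest to Ehhadh, Chrdl2 at 1.437 and 1700027J07Rik at 1.512, had group means of at most 1.379 CPM.

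Markers of liver cell types were read beside these results. All 7 hepatocyte markers were present, with a summed level of 55600 to 66800 CPM with saline and 43700 to 51900 CPM with L-AC in WT, and of 60200 to 70500 and 31800 to 54800 CPM in KO. With L-AC, 1 of the 7 was called higher and 3 lower in WT, and 0 and 4 in KO. Of all genes, 53.3% were called in WT and 48.8% in KO, in either direction. Cholangiocyte markers (5 of 5 in the tables) summed to 13.3 to 78.9 CPM over all libraries, with 1 called lower with L-AC in either genotype. Stellate cell markers (6 of 6) summed to 38.4 to 103 CPM, with 2 called higher and 1 lower in WT and 0 and 1 in KO. Endothelial markers (6 of 6) summed to 121 to 209 CPM, with 1 of 6 called lower with L-AC in WT and 2 in KO. Of 6 Kupffer cell and macrophage markers, 5 were in the tables and summed to 33 to 135 CPM, with 1 called higher and 3 lower in WT and 1 and 1 in KO. Lymphocyte markers (6 of 6) summed to 2.61 to 13 CPM, with 1 of the 5 tested called higher and 4 lower in WT and 1 and 2 in KO. No marker was at 0 throughout a group. The part of these shifts in the members' results was not tested.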

How the data were processed

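The deposited files hold raw counts, the reads per gene and library, which the authors made with featureCounts 1.4.4. Per the file headers, the gene models were UCSC's for mm10, exons were grouped by gene, primary alignments kept, strand not used, and a read over several genes counted for each. Alignment was with STAR 2.4.0 to mm10 (GRCm38), per the submitters' processing notes. Replicates are separate mice, numbered within a group in accession order, and the labels name no batch. Over 56 replicate pairs chi-square divided by its degrees of freedom was at least 44.05 (genes with at least 20 reads), so no library was counted as a repeat. Pairs with WT saline replicate 1 had values of 151.6 to 228.61, and the other WT saline pairs 48.24 to 133.96.

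Genes were kept by filterByExpr (minimum count 10, minimum total 15), which left 14196. Counts were scaled by TMM and fitted in edgeR 4.0.16 (R 4.3.3) with 1 mean per group over all 23 libraries, with the quasi-likelihood F test, two-sided, and Benjamini-Hochberg adjustment over all genes tested. Calls are genes with an adjusted p under 0.05, and SE is the size of the log2 fold change divided by the square root of F. CPM used the TMM-scaled library size, and RPKM divided CPM by exonic length in kilobases. Ratios took 0.5 reads as pseudocount and an exact permutation test over libraries. Coordinates are those of the files. Promoter windows are RefSeq's, and shared stretches come from GENCODE transcripts.

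The members and the gene lists were chosen with earlier results of these data known. Named genes were all 9 members, up to 3 genes per list with the smallest p for L-AC in WT, and the 2 genes most like each of the 3 members with the largest change there. Of the genes this rule takes, 2 are not reported here. Alternatives were DESeq2's size factors in edgeR, DESeq2 1.42.0, limma-voom (limma 3.58.1), no filter, 1 CPM in 5 libraries, age as a covariate, an adjusted p under 0.01, only the groups compared, a pseudocount of 0, and each library left out. Leaving out WT saline replicate 7 and KO saline replicate 3 together was added after seeing the data, as were the spreads without either and the gaps on the CPM scale. The fits were tested on simulated counts, in which 50 genes were raised at each size of change and all others left unchanged. This setting differs from the L-AC comparisons, where 53.3% (WT) and 48.8% (KO) of all genes were called.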

Additional observations from a re-analysis of the deposited data

Results flagged for a closer look

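Acaa1a in WT saline replicate 7, at 1892 CPM, stood apart from the other 6 libraries of its group, with a gap to the next library of 0.639 of the group's range on the log2 CPM scale, where 0.568 is the limit of Dixon's test for 7 samples. Acaa1a in KO saline replicate 3, at 1576 CPM, stood apart likewise, with 0.79 against a limit of 0.71 for 5 samples. The 9 genes in 4 groups gave 36 such checks on the log2 scale, of which these 2 passed the limit, and chance flags about 1 in 20. On the linear CPM scale 4 passed: Acaa1a in the same libraries (0.753 and 0.846), Acaa1b in WT saline replicate 7 (0.595) and Ehhadh in KO saline replicate 3 (0.749). The same libraries had the highest Ehhadh of their groups (1635 and 252.9 CPM) and the highest Acaa1b (4095 and 3572 CPM). Both were from mice 41 weeks old, and what sets them apart was not tested.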

How the results depend on the processing

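Over the alternatives, counts of members called kept within 1.5 times the reported count in 189 of 190 cases; the exception was L-AC against saline in KO at an adjusted p under 0.01, with 5 members in place of 8. With each library left out, that count ran from 6 to 8. Fold changes of members kept their direction and their side of the threshold in 1580 cases, lost a call in 33 (all of Acox2 or Scp2 for L-AC in KO, given above) and changed sign in 43, all in genotype or interaction differences that had passed no test.

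With each library left out in turn, KO against WT under saline ran from -0.08 to 0.10 for Acox2 and from -0.18 to 0.32 for Acaa1a. Under L-AC it ran from -0.084 to 0.0334 for Hsd17b4, -0.29 to 0.0461 for Acaa1a and -0.0475 to 0.0751 for Acaa1b, and averaged over treatments from -0.14 to 0.11 for Acaa1a. The interaction ran from -0.09 to 0.0484 for Acox3, -0.41 to 0.0935 for Ehhadh, -0.0375 to 0.0798 for Hsd17b4, -0.42 to 0.0886 for Acaa1a and -0.0049 to 0.17 for Decr2. Among log2 ratios, Acaa1b to Acaa1a for L-AC in WT ran from 0.24 to 0.41, and Scp2 to both sisters for KO against WT under L-AC from -0.14 to 0.059. Acox2 in KO against WT under saline (0.0027) turned to -0.0001 with DESeq2 and -0.064 without WT saline replicate 7 and KO saline replicate 3, and Acaa1a averaged over treatments to 0.0092 with age as a covariate. The cause was not tested.

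No paired analysis was possible because the replicate numbers only follow accession order. Depth limits Acox3 most, at 505 to 1396 reads per library. Reads shared by Acaa1a and Acaa1b, or by Scp2 and the gene models Gm47162 and Scp2-ps2, cannot be divided.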
